A study of Homo sapiens with 4 samples.

Results

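The expressed numbered zinc finger genes of RKO cells, whose symbols consist of ZNF and a number alone, were examined in RNA-seq data after CHD7 knockdown. They were chosen by their level: every row with such a symbol and a mean of at least 2 FPKM (fragments scaled by transcript length and by library depth) over the 4 samples was a member. This rule took 327 of the 446 numbered ZNF genes (73.3%) in a table of 15357 genes. The mean was taken over both groups, so the rule did not use the difference between them. A gene near the minimum can still pass it only through the group where it is higher. The lowest members were ZNF814 (2.02), ZNF501 (2.03) and ZNF165 (2.07), and just outside lay ZNF177 (1.99), ZNF790 (1.99) and ZNF709 (1.98). These levels describe the edge of the rule and were not tested.

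Most of these genes encode C2H2 zinc finger proteins, in which short loops folded around a zinc ion each read a few bases of DNA, and arrays of fingers joined by a conserved linker recognise longer sites. Many carry a KRAB domain at the amino end, which recruits TRIM28 (KAP1) and, through it, the SETDB1 histone methyltransferase, HP1 proteins and the NuRD complex, and so silences chromatin, often at transposable elements. The genes arose by repeated tandem duplication, and large clusters of them lie on chromosome 19, so close copies can share long stretches of sequence.

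RKO is an established line of human colorectal cancer cells. Both groups were RKO cells stably expressing a lentiviral shRNA, 2 samples with control shRNA (labelled vector) and 2 with CHD7 shRNA-2, a short hairpin RNA against the chromatin remodeller CHD7. The comparison asks which transcripts differ when CHD7 is knocked down. A single CHD7 shRNA was sequenced, so the loss of CHD7 and any other action of that hairpin cannot be told apart. Nothing states that the samples of a group came from separate cultures, so the p-values measure the spread between these samples, which may be technical. In bulk RNA, fewer cells making a transcript and less transcript per cell also cannot be told apart.

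The estimated counts summed to between 15734679 and 16068650 per sample, and the members took 1.06% to 1.12% of each total. CHD7 itself was at 85.4 and 91.0 CPM (counts scaled to the size of the library, here by TMM) with control shRNA and 55.5 and 50.1 with CHD7 shRNA-2, with a log2 fold change of -0.74 ± 0.088 (SE, n = 2 and 2; adjusted p = 4e-06 from edgeR). Of the epithelial markers, KRT18 had a mean of 58.0 FPKM, KRT8 12.3 and EPCAM 6.70, while CDH1 was near 0 at 0.0025. PECAM1 and COL1A1, markers of endothelial cells and fibroblasts, had means of 0.0050 and 0.045.

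The same codons for the linker between fingers recur in many members. Linkers were found by their residues, so they are alike in protein by choice, and their place between fingers was not checked. In the longest coding transcript of each member in GENCODE 29, 1668 linkers (threonine, glycine, glutamate or glutamine, lysine or arginine, proline) were found in 270 members, and they were coded by 268 distinct words of 15 bases. The word ACTGGAGAGAAACCC alone coded 243 linkers (14.6%) in 86 members, and ACTGGAGAGAAACCT coded 169 (10.1%) in 67 members. The 4 sites below are from the close pair ZNF417 and ZNF587 and from the neighbours ZNF616 and ZNF841, which were among the members that differed most between the groups. Each is 30 bases of the coding sequence, 5′ to 3′ on the gene's strand, with the linker codons in capitals (GRCh38, chr19:57909132-57909161, chr19:57859529-57859558, chr19:52116351-52116380 and chr19:52066757-52066786). All lie in the last exon.
ZNF417 (- strand): gttcacACTGGAGAAAGGCCTtacaagtgt
ZNF587 (+ strand): gttcacACTGGAGAAAGGCCTtacaagtgt
ZNF616 (- strand): agtcacACTGGACAGAAACCCtacatatgt
ZNF841 (- strand): attcatACTGGAGAGAAACCTtacaaatgt
The window of ZNF417 was picked because ZNF587 holds the same 30 bases, so these 2 windows are identical by choice. Those of ZNF616 and ZNF841 hold the first linker of each gene and were not aligned. The longest stretch without a mismatch between the transcripts of ZNF417 and ZNF587 was 538 bases, whereas ZNF616 and ZNF841 had 77 bases in common at most.

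Members were expressed at a low to moderate level. Their mean FPKM had a median of 6.42, with quartiles of 3.96 and 10.0, against a median of 12.8 over the 11955 genes that passed the filter on low counts. Of the members, 204 reached 5 FPKM, 82 reached 10 and 9 reached 50. The lowest count of any member in any sample was 25 and the median was 360, so all 327 passed the filter.

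The level per length was highest for ZNF438, at 90.1 and 99.4 FPKM with control shRNA and 109 and 107 with CHD7 shRNA-2. ZNF207 (BuGZ), a spindle assembly protein that binds BUB3, came next at 98.0 and 101 against 96.3 and 92.2 FPKM. The samples of these 2 genes overlapped, so their order was within the spread. ZNF672 was at 69.1 and 63.5 against 77.8 and 84.0 FPKM, and ZNF593, whose yeast relative acts in export of the large ribosomal subunit, at 62.4 and 61.1 against 68.7 and 79.6. Below them lay ZNF664 (mean of 65.5 FPKM), ZNF706 (62.0), ZNF655 (59.0) and ZNF581 (56.0), and each of these overlapped its neighbours in the order. None of these 8 genes carried a KRAB-like stretch, and the lowest sample among them was 50.4 FPKM.

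By protein structure, translated from the same transcripts, the members had a median of 11 finger patterns and a total of 3519. The range ran from 0 in 7 members to 34 in ZNF462, and 186 members had 10 or more. A KRAB A-box-like stretch, matched at 14 fixed residues with up to 4 mismatches, was present in 189 members and not found in 138. As a check on false matches, the pattern was found in 5 of 11260 tested genes with other symbols. How many KRAB domains it misses was not tested, so the 138 may include some. The KRAB-like members were lower in level, with a median of 5.35 FPKM and a highest mean of 32.7, against a median of 8.08 and a highest mean of 101 for the other members. They also had more fingers, with a median of 12 against 8.

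**Figure D1:**
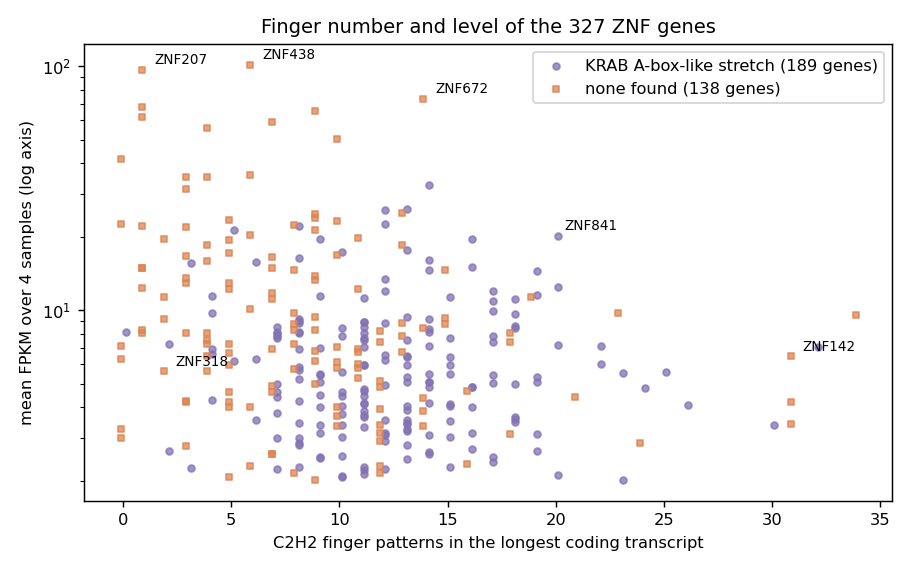
Number of C2H2 finger patterns (x axis) against the mean FPKM over 4 samples (y axis, log scale) for 189 members with a KRAB A-box-like stretch (circles) and 138 without one (squares). The members above 50 FPKM are all squares, and the KRAB-like members reach 32.7 FPKM at most.

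CHD7 knockdown moved few of these genes. In edgeR's quasi-likelihood test over all 11955 genes, with Benjamini-Hochberg adjustment, 1 member, ZNF318, was called lower at an adjusted p under 0.05 and a change of at least 1.5-fold (0.306% of members), where 1.37% of all genes tested were called lower. No member was called higher, where 1.51% of all genes tested were, and DESeq2 also called 0 higher and 1 lower. At an unadjusted p under 0.05, 19 members were higher and 23 lower with edgeR, and 11 and 12 with DESeq2. Leaving out 1 sample at a time gave 1 higher call without control replicate 1 (ZNF165) or without CHD7 shRNA-2 replicate 1 (ZNF2), and 2 without control replicate 2 (ZNF841 and ZNF616) or without CHD7 shRNA-2 replicate 2 (ZNF841 and ZNF165).

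With no limit on the fold change, 8 members rose (2.45%, against 4.94% of all genes tested) and 6 fell (1.83%, against 6.54%). All 14 had groups that did not overlap, which was so for 131 of the 327 members (40.1%) and for 53.7% of all genes tested. With library totals in place of TMM, 13 members were higher and 2 lower, and limma on log2(FPKM + 1) gave 7 higher and 2 lower, so the split between directions depended on the scaling. The median log2 fold change of the members was 0.0025 (169 higher and 158 lower), beside 0.00056 for all genes tested. It was 0.047 with library totals, beside 0.045 for all genes.

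The spread of the members was narrower than that of all genes. Their quartiles lay at -0.10 and 0.11 on the log2 scale, against -0.13 and 0.13, although the median standard error was 0.11 for the members and 0.096 for all genes. The 95% interval lay wholly within 1.5-fold in either direction for 305 members (93.3%), and for 80.5% of all genes tested. All genes tested were not matched to the members in level, and they include genes under 2 FPKM, such as ZNF614 at 0.82. For the other 22 members the interval reached past 1.5-fold. The 313 members that missed the adjusted p had log2 fold changes between -0.42 and 0.76.

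**Figure D2:**
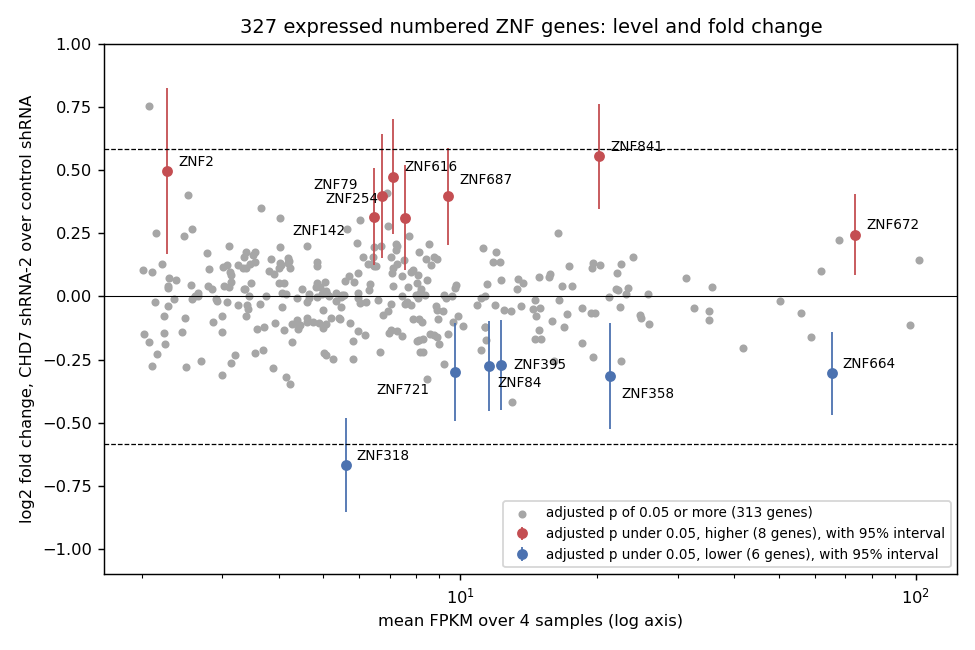
Mean FPKM over 4 samples (x axis, log scale) against the log2 fold change of CHD7 shRNA-2 over control shRNA (y axis) for the 327 members. The 14 members with an adjusted p under 0.05 are named and carry 95% intervals, and dashed lines mark 1.5-fold, which only ZNF318 passes among the 14.

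ZNF318 showed the largest fall. This large protein, with 2 finger patterns by the search used here, is known in B cells for its part in making IgM and IgD transcripts from the same locus. Its level was 52.7 and 55.5 CPM with control shRNA and 34.1 and 34.0 CPM with CHD7 shRNA-2. Both CHD7 shRNA-2 samples lay well below both control samples. The log2 fold change was -0.67 ± 0.090 (SE, n = 2 and 2; adjusted p = 2.3e-05 from edgeR), a fold of 0.629. The gene lies on chromosome 6 from 43307134 to 43369478 on the - strand of GRCh38, its counts were whole in every sample, and none of its 75-base words occurred in another gene. It was also called in each of the 4 fits without 1 sample, with log2 fold changes from -0.71 to -0.63, although an arm of those fits holds 1 sample and rests on the spread of the other group.

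ZNF841 and ZNF616, KRAB-like genes with 20 and 22 finger patterns, rose and are neighbours on chromosome 19. ZNF841 (52064466 to 52095765, - strand) was at 53.3 and 68.1 CPM with control shRNA and 93.0 and 85.4 CPM with CHD7 shRNA-2. ZNF616 (52113091 to 52139922, - strand) was at 22.1 and 27.9 CPM against 36.4 and 33.1 CPM. In both genes control replicate 1 was the lowest sample and CHD7 shRNA-2 replicate 1 the highest. The log2 fold change was 0.56 ± 0.10 (SE, n = 2 and 2; adjusted p = 6.4e-04 from edgeR) for ZNF841, a fold of 1.47. For ZNF616 it was 0.47 ± 0.11 (SE, n = 2 and 2; adjusted p = 0.0059 from edgeR), and without control replicate 1 it was 0.32 with an adjusted p of 0.17. For ZNF841 the adjusted p stayed under 0.05 without each sample in turn, with log2 fold changes from 0.39 to 0.74.

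The genes around this pair differed among themselves. ZNF432, whose annotated locus (52031379 to 52095738, - strand) overlaps that of ZNF841, was at 48.0 and 50.6 CPM against 55.7 and 55.8 CPM, a log2 fold change of 0.18 that did not pass the test (adjusted p = 0.21 from edgeR). ZNF836 on the far side of ZNF616 was at 0.04 (adjusted p = 0.89), with a 95% interval from -0.22 to 0.29. ZNF614, a numbered ZNF gene below the FPKM minimum that was picked here after its values were seen, had 35 and 51 counts with control shRNA and 83 and 65 with CHD7 shRNA-2 (log2 fold change of 0.75, adjusted p = 0.036 from edgeR). The counts of ZNF841, ZNF616, ZNF432 and ZNF614 were whole in all samples. ZNF841 and ZNF616 shared 0.080% and 0.070% of their 75-base words with other genes.

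Chromosome 19 held 147 members (45.0%), followed by chromosome 16 with 25 and chromosome 7 with 22. On the log2 scale the members on chromosome 19 had a median change of 0.0089 and the 180 elsewhere one of -0.0052. Split at gaps of more than 400 kb, the chromosome 19 members fell into 20 stretches. The most populous, from 51571298 to 53458261, held 26 members including ZNF841 and ZNF616, with a median of 0.020 and 15 of 26 above 0. The next held 21 members near the end of the long arm (57191500 to 58481230), with a median of 0.021 and none that passed the test, and the stretch from 11559374 to 12640098 held 18 members, with a median of 0.026 and also none.

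**Figure D3:**
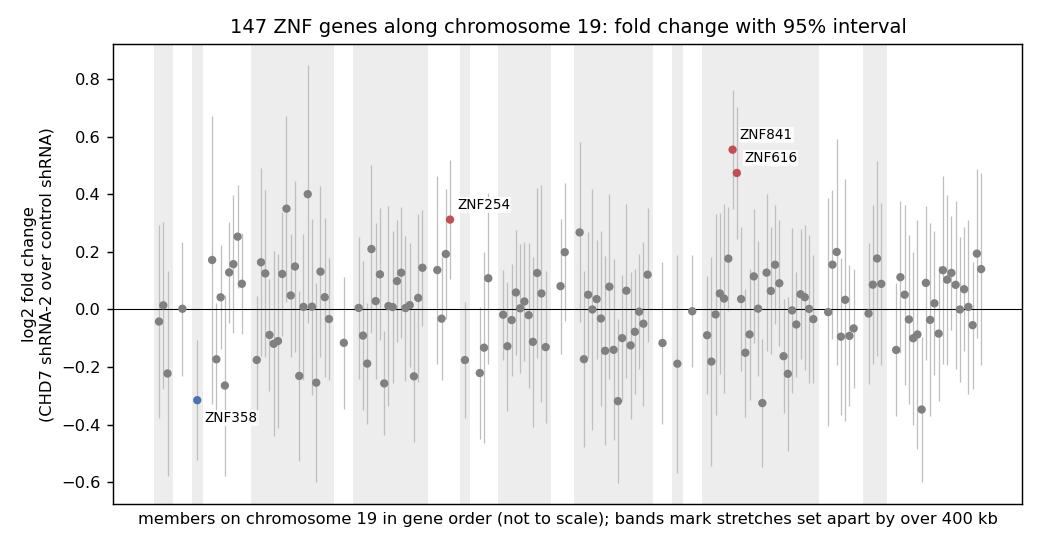
Log2 fold change of CHD7 shRNA-2 over control shRNA (y axis) with 95% intervals for the 147 members on chromosome 19, in gene order along the x axis, with shaded and plain bands for stretches more than 400 kb apart. ZNF841 and ZNF616 stand side by side above their neighbours, ZNF254 is higher and ZNF358 lower in other stretches, and the remaining members scatter around 0.

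The other 6 members that rose were of several kinds. ZNF687, which acts with ZNF592 and ZMYND8 in a chromatin complex, was at 34.8 and 37.6 CPM with control shRNA and 49.1 and 46.3 CPM with CHD7 shRNA-2. Its log2 fold change was 0.40 ± 0.092 (SE, n = 2 and 2; adjusted p = 0.0060 from edgeR), and without control replicate 1 the adjusted p was 0.11. On the same scale, with SE and n = 2 and 2 throughout, ZNF142, a long protein with 31 finger patterns that is mutated in a neurodevelopmental disorder, was at 37.4 and 35.7 CPM against 47.1 and 43.9 CPM (log2 fold change of 0.32 ± 0.092, adjusted p = 0.027). ZNF79 was at 14.3 and 15.2 CPM against 19.3 and 19.6 CPM (0.40 ± 0.12, adjusted p = 0.032). In all 3 the groups were clearly apart and the samples within a group close. With DESeq2 the adjusted p was 0.025 for ZNF687, but 0.111 for ZNF142 and 0.175 for ZNF79. ZNF672, the third highest in level, was at 205 and 189 CPM against 223 and 243 CPM (0.24 ± 0.078, adjusted p = 0.043), and ZNF254 at 25.3 and 24.6 CPM against 32.2 and 29.7 CPM (0.31 ± 0.10, adjusted p = 0.045). ZNF2, the lowest of the 14 at a mean of 2.28 FPKM, was at 6.57 and 7.73 CPM against 9.42 and 10.8 CPM (0.50 ± 0.16, adjusted p = 0.044). That mean is close to the minimum of 2 FPKM and rests in part on the higher CHD7 shRNA-2 samples. The membership of ZNF2 is therefore not independent of its higher estimate. ZNF672, ZNF2 and ZNF254 were near the threshold of the adjusted p and the lowest fold among them, that of ZNF672, was 1.18.

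Besides ZNF318, 5 members fell, each by less than 1.5-fold. With SE and n = 2 and 2 again, ZNF664, the fifth highest in level, was at 285 and 315 CPM with control shRNA and 257 and 229 CPM with CHD7 shRNA-2 (log2 fold change of -0.30 ± 0.079, adjusted p = 0.013 from edgeR). ZNF721 was at 47.6 and 50.2 CPM against 42.3 and 37.1 CPM (-0.30 ± 0.094, adjusted p = 0.040). ZNF84 was at 81.7 and 91.4 CPM against 71.3 and 71.9 CPM (-0.27 ± 0.086, adjusted p = 0.041). The groups of these 3 genes did not overlap. ZNF395 was at 63.0 and 62.0 CPM against 52.4 and 51.1 CPM (-0.27 ± 0.086, adjusted p = 0.042), and 41.4% of its 75-base words also belonged to FBXO16, whose locus overlaps it. ZNF358 was at 44.5 and 37.5 CPM against 31.6 and 34.3 CPM (-0.32 ± 0.10, adjusted p = 0.045), and 18.5% of its words occurred in GENCODE genes outside the table. In 4 of the 14 changed members (ZNF664, ZNF358, ZNF672 and ZNF616) the nearest samples of the groups lay closer together than the samples within a group did. ZNF2 and ZNF254 were not covered by the rule for named genes and were added after their values were seen.

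Leaving out 1 sample leaves an arm of 1, which is then assumed to vary like the samples of the other group. The adjusted p then also depends on the spread of the group left whole. Of the 14 members, ZNF318 and ZNF841 kept an adjusted p under 0.05 in each of the 4 fits without 1 sample, and 12 lost it in at least 1. Leaving out control replicate 1 lost 11, control replicate 2 lost 9, CHD7 shRNA-2 replicate 1 lost 5 and CHD7 shRNA-2 replicate 2 lost 7. Without control replicate 2, the log2 fold change was -0.23 for ZNF664 (adjusted p = 0.33 from edgeR), 0.28 for ZNF142 (0.27), -0.26 for ZNF721 (0.32), -0.19 for ZNF84 (0.52), -0.28 for ZNF395 (0.23), 0.19 for ZNF672 (0.51) and 0.29 for ZNF254 (0.29). Without control replicate 1 it was 0.35 for ZNF79 (0.21), 0.38 for ZNF2 (0.30) and -0.19 for ZNF358 (0.48). The direction was kept in each of these fits, but the groups of all 14 did not overlap, so it had little room to change. Without control replicate 2, the size for ZNF395, ZNF142 and ZNF254 was close to that with all samples. Over the 4 fits it ran from -0.30 to -0.25 for ZNF395, 0.26 to 0.37 for ZNF142 and 0.25 to 0.37 for ZNF254.

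**Figure D4:**
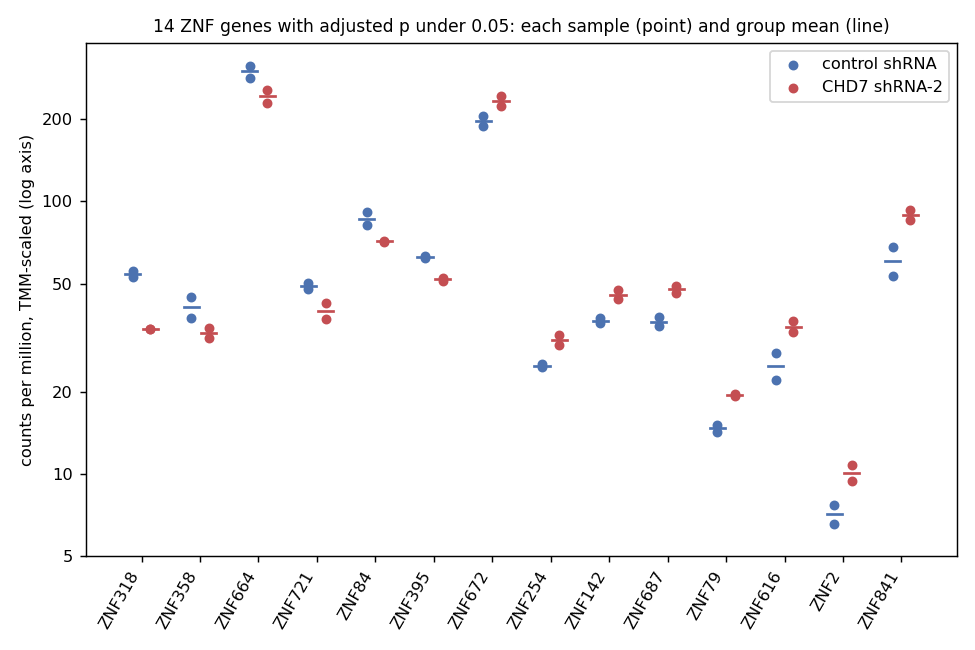
TMM-scaled CPM (y axis, log scale), in each sample (points) with the group mean (lines) for the 14 members with an adjusted p under 0.05, ordered by fold change. ZNF318 at the left shows the widest gap downward and ZNF841 at the right the widest upward, and in no gene do the control (blue) and CHD7 shRNA-2 (red) samples overlap.

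The lists drawn up by function stand beside all genes tested, of which 11.5% had an adjusted p under 0.05. Of 26 numbered ZNF genes listed as transcription and chromatin partners without KRAB, 24 were members, of which 10 were higher and 14 lower in estimate. Among these, ZNF687 rose, ZNF318 fell and the median log2 fold change was -0.036. ZNF143, which binds promoters and the anchors of chromatin loops, came after them by p, at 31.4 and 35.3 CPM against 29.3 and 28.3 CPM (-0.21, adjusted p = 0.18). Of 19 genes with a SCAN domain, a module for pairing between zinc finger proteins, 16 were members, 10 were higher and 6 lower in estimate with a median of 0.048, and none passed the test. The largest estimate was that of ZNF165, a testis-restricted antigen re-expressed in tumours, with 45, 25, 66 and 55 counts in control replicates 1 and 2 and CHD7 shRNA-2 replicates 1 and 2 (log2 fold change of 0.76, 95% interval from 0.21 to 1.30, adjusted p = 0.064 from edgeR). ZNF165 was at 1.92 and 1.18 FPKM with control shRNA and 2.80 and 2.39 with CHD7 shRNA-2. It passed the FPKM minimum only through the CHD7 shRNA-2 samples, so its membership is not independent of its higher estimate. Next by p came ZNF397 (-0.13, adjusted p = 0.36) and ZNF394 (0.12, adjusted p = 0.43).

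All 10 genes listed for roles at RNA, ribosomes or the spindle were members, with a median level of 26.8 FPKM and a median log2 fold change of -0.026, and none passed the test. ZNF638, an RNA-binding partner of the HUSH silencing complex, was at 113 and 137 CPM against 107 and 105 CPM (-0.24, adjusted p = 0.089). ZNF330, a nucleolar protein, was at -0.20 (adjusted p = 0.14) and ZNF593 at 0.23 (adjusted p = 0.16). Of the 8 members highest in level, only ZNF672 and ZNF664 passed the test, in opposite directions. ZNF438 had 0.15 (adjusted p = 0.23) and ZNF207 -0.11 (adjusted p = 0.36).

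Fold changes were also read by structural class, as a description. For the 189 KRAB-like members the median on the log2 scale was 0.0084, with 106 higher and 83 lower in estimate, 4 that rose and 1 that fell. The 138 others had a median of -0.0085, with 63 higher and 75 lower, 4 that rose and 5 that fell. By finger number the medians were -0.023 for 48 members with up to 4 fingers, -0.012 for 93 with 5 to 9, 0.0089 for 117 with 10 to 14 and 0.0022 for 69 with 15 or more. The difference between the classes was not tested.

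Reads can be divided between close copies, and the deposited estimated counts then need not be whole. At a tolerance of 0.005, 85 of the 327 members (26.0%) had a count that was not whole in at least 1 sample, against 20.4% of all genes tested, and 23 had one in all 4 samples. As a measure from sequence, 85 members (26.0%) shared at least 1 word of 75 bases in their longest coding transcript with any transcript of another gene of the table, against 11.2% of the 11719 tested genes with a transcript. These are not the same 85 genes: 42 members had both. Counts were not whole in 49.4% of the members that shared a word and in 17.8% of the 242 that shared none. At least 10% of words were shared in 13 members (3.98%, against 4.33% of all genes), 11 of them with counts that were not whole. Of the 14 changed members, 11 had whole counts in all samples, and ZNF395 alone shared 10% or more.

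For the pairs that share most, the sum of both genes does not depend on how reads were divided within the pair, although it can still depend on reads divided with further genes. The sums' log2 ratios use the same TMM scaling as the single genes. ZNF417 and ZNF587, which are known to repress an endogenous retrovirus family, had counts of 193 and 648 in control replicate 1, 261 and 653 in control replicate 2, 259 and 786 in CHD7 shRNA-2 replicate 1 and 233 and 666 in CHD7 shRNA-2 replicate 2. Their sums of 841, 914, 1045 and 899 overlapped between the groups, with a log2 ratio of 0.12. Neither gene passed the test (0.09, adjusted p = 0.75, and 0.13, adjusted p = 0.44). ZNF443 shared 22.9% of its words, most with ZNF799, and the pair summed to 267 and 278 with control shRNA and 273 and 248 with CHD7 shRNA-2. ZNF443 alone was at -0.25 (adjusted p = 0.36) and the sum at -0.096.

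ZNF320 shared 93.3% of its words with transcripts annotated to ZNF468, the most of any member, and its count was not whole in 1 sample. The longest coding transcripts of the 2 genes had an identical stretch of 80 bases at most, and the share counts every transcript annotated to ZNF468. The pair summed to 1110 and 1291 with control shRNA and 1232 and 1103 with CHD7 shRNA-2, a log2 ratio of -0.071, where ZNF320 alone was at -0.16 (adjusted p = 0.30) and ZNF468 at 0.09 (adjusted p = 0.64). ZNF324 shared 31.3% of its words, 24.1% with transcripts annotated to ZNF446, and had counts that were not whole in all 4 samples. The longest coding transcripts of ZNF324 and ZNF446 held no word of 75 bases in common, so the share comes from other annotated ZNF446 transcripts. That pair summed to 312 and 300 against 319 and 386, a log2 ratio of 0.17, with ZNF324 alone at 0.19 (adjusted p = 0.43). For ZNF395 and FBXO16 the sums were 1013 and 1026 with control shRNA and 898 and 862 with CHD7 shRNA-2, which did not overlap, with a log2 ratio of -0.24. FBXO16 took 35 to 57 counts of these sums.

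The FPKM values also divide by a transcript length estimated in each sample, so a change in isoforms can move FPKM without moving counts. The length behind the FPKM moved by more than 0.2 on the log2 scale between the groups in 1 member, ZNF226, at -0.25.

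A set of 3 words of 7 bases had been picked out of these same data for their presence in the 3′ UTRs of genes lower after CHD7 shRNA-2, so their presence among the members is a description and not independent of it. One is AGCTATT, a further word overlapping it by 6 bases is GCTATTA, and the remaining word of the set is GAAGCTA. They were searched on the sense strand of each gene's coding transcript with the longest 3′ UTR. This need not be the longest coding transcript used elsewhere, nor the one expressed in these cells. At least 1 word was present in 73 of the 324 members with a 3′ UTR (22.5%), against 22.3% of all genes tested. These 73 members had a median change of -0.086 on the log2 scale and the 251 with none one of 0.011, beside -0.079 and 0.021 over all genes tested. The 3′ UTRs of the members with a word were longer, with a median of 3064 bases against 1425, and the part of length was not tested.

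Of the 6 members that fell, 4 held a word, and of the 8 that rose, 1 did (ZNF2). The sites of these 5 members are shown with the word in capitals, in 27 bases of the mRNA strand from GRCh38 (chr6:43337002-43337028, chr12:124015306-124015332, chr4:441260-441286, chr12:133059215-133059241 and chr2:95183344-95183370). All lie in the last exon.
ZNF318: aatgttcatgGAAGCTAaaaaatttac
ZNF664: taacccttttGAAGCTActaattttat
ZNF721: aatatacaaaAGCTATTgtctacttga
ZNF84: aagtctcttaAGCTATTagaaatattc
ZNF2: ccagcacctaGAAGCTAggaaagtaaa
In ZNF84 the base after the capitals completes GCTATTA as well. Other members that held a word did not pass the test, such as ZNF207, ZNF655, ZNF394 and ZNF320 above, and a match does not show that the site is bound.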

How the data were processed

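The samples were RKO cells with control shRNA (2) or CHD7 shRNA-2 (2), grouped by their labels, and the assay was RNA-seq. The authors deposited estimated counts (expected counts of reads, not normalized) for 15357 genes, and FPKM values for the same genes, normalized by the authors for length and depth. The submitters' processing notes name Bowtie2, RSEM, DESeq2 and the build hg38. Roles, versions, read length and use of strand are not given in the sources used here, so reads of antisense or overlapping genes cannot be told apart.

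Estimated counts were rounded to whole numbers. With edgeR 4.0.16 in R 4.3.3, low genes were removed by filterByExpr, TMM set the scaling, and the quasi-likelihood test covered 11955 genes, with Benjamini-Hochberg adjustment and no covariates. The threshold for a call was an adjusted p under 0.05 together with a change of at least 1.5-fold, as in the study. The F statistic gave the standard errors and 95% intervals. The depth of 15734679 to 16068650 counts per sample and 2 samples per group gave a biological coefficient of variation of 0.0579. A two-sided permutation of 2 against 2 samples cannot go below p = 0.333. Replicates differed by more than sampling noise over the members, with a chi-square per degree of freedom of 2.79 for the control and 3.22 for the CHD7 shRNA-2 samples. Each was counted as a sample, although this spread does not show that they came from separate cultures.

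Alternatives were DESeq2 1.42.0, its size factors or library totals in edgeR, other filters, a replicate block, limma 3.58.1 on log2(FPKM + 1) or log2(FPKM + 0.1), other FPKM minimums, members with whole counts, and each sample left out. Same-numbered samples did not deviate together (r = -0.252 over 11955 genes), so no pairing was used.

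Gene positions, transcripts and 3′ UTRs came from GENCODE 29 on GRCh38, matched by symbol for 14835 of 15355 symbols. For each gene the longest complete coding transcript was used. The 3′ UTR was taken instead from the coding transcript with the longest 3′ UTR. Words of 75 bases of the longest complete coding transcript stood in for reads of unknown length. They were looked up in all annotated transcripts of the other genes. Fingers were counted as cysteine, 2 to 4 residues, cysteine, 12 residues, histidine, 3 to 5 residues, histidine, and KRAB in the first 250 residues. Sequence work used Python 3.11.15 and Biopython 1.88.

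The members, gene lists, 3′ UTR words and tests were chosen with earlier results of these data known. The rule for named genes took every called member, the 5 higher and 5 lower of smallest p among the others, the 8 highest in FPKM, the 3 on each side of the minimum, the 5 sharing most words, up to 3 of each list by p, TRIM28 and CHD7. ZNF2, ZNF254, ZNF226, ZNF432, ZNF462, ZNF614, ZNF836 and the other zinc finger families' genes are not covered by it, and their choice came after seeing their values.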

Additional observations from a re-analysis of the deposited data

How the results depend on the processing

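ZNF318 was the only member called lower in every setting, except that 0 were called lower by limma on log2(FPKM + 1) with or without the FPKM filter, where its fold was under 1.5 or its adjusted p was 0.125. Members called higher, 0 as reported, numbered 2 with library totals and 2 with limma on log2(FPKM + 0.1) (ZNF841 and ZNF165 in both), and 1 to 2 without 1 sample. With no fold threshold the counts were 8 higher and 6 lower. These 8 and 6 became 3 and 2 with DESeq2, 13 and 2 with library totals, 0 and 1 with no filter on low counts, 2 lower with limma on log2(FPKM + 1) or log2(FPKM + 0.1), and 0 and 0 with limma and no FPKM filter. Of all genes 1373 passed as reported, 800 with DESeq2, 1486 with library totals, 197 with no filter on low counts and 8 with limma and no FPKM filter. Among the members sharing no word 5 rose, and without 1 sample 2 to 8 rose and 2 to 8 fell. The median log2 fold change, 0.0025, was 0.047 with library totals, 0.044 with limma on log2(FPKM + 1), with or without the FPKM filter, and 0.052 on log2(FPKM + 0.1), beyond its spread between samples of 0.035. The median over all genes moved too, to 0.045 with library totals and 0.042 on log2(FPKM + 0.1). On log2(FPKM + 1) it was 0.038 with the FPKM filter and 0.021 without it. With the replicate block, 0 members were called higher and 1 lower, and 3 rose and 1 fell at any fold (755 of all genes passed). With the pairing crossed, chosen after seeing the data, 1 was called higher and 1 lower, and 20 rose and 32 fell at any fold (3751 of all genes). Over 520 comparisons of a named gene with an alternative, 406 kept their side of the threshold, 106 lost it, 8 gained it and 0 reversed. Named genes that missed the adjusted p as reported could not lose it, which raises the number kept. All 14 changed members kept an adjusted p under 0.05 with DESeq2's size factors or with a filter at 1 CPM. The number was 10 with library totals, 6 with limma on log2(FPKM + 1), 5 with DESeq2, 4 with the replicate block and 1 with no filter. The causes were not tested. With 2 samples per group, the 95% interval of 22 members reached past 1.5-fold.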

Other observations

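Zinc finger genes with other symbols were read beside the numbered ones, and the difference was not tested. At the same minimum of 2 FPKM, 75 genes of the ZSCAN (10), ZKSCAN (4), ZBTB (33) and ZFP (10) families and of the ZNF genes with a letter (18) showed 34 higher and 41 lower in estimate and a median of -0.019 on the log2 scale, and 0 were called, while 2 rose and 3 fell at an adjusted p under 0.05 from edgeR. Over all genes tested, 1.51% were called higher and 1.37% lower, and 4.94% rose and 6.54% fell. ZBTB7B, a regulator of T-cell fate and other lineages, was at 35.9 and 29.3 CPM with control shRNA and 39.1 and 43.1 CPM with CHD7 shRNA-2 (log2 fold change of 0.33, adjusted p = 0.040). ZNF286A was at 41.0 and 44.0 CPM against 55.4 and 50.8 CPM (0.32, adjusted p = 0.023), with counts that were not whole in all 4 samples. ZBTB1 was at 50.5 and 53.4 CPM against 41.3 and 38.7 CPM (-0.38, adjusted p = 0.0075), ZNF280D at 28.7 and 29.6 CPM against 22.9 and 22.6 CPM (-0.36, adjusted p = 0.020), and ZFP62 at 33.1 and 33.5 CPM against 27.1 and 26.1 CPM (-0.32, adjusted p = 0.031). The groups of these 5 genes did not overlap. They were named after their values were seen.

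Of the 24 tested cofactors through which KRAB proteins silence chromatin, 15 were lower and 9 higher in estimate, the median on the log2 scale was -0.064, and 0 were called, beside the shares of all genes given above. CBX1 (HP1 beta), which binds methylated histone H3, was at 114 and 123 CPM with control shRNA and 87.2 and 88.4 CPM with CHD7 shRNA-2 (-0.43, adjusted p = 9.7e-04 from edgeR). RBBP7, a histone-binding subunit of NuRD and other complexes, was at 145 and 151 CPM against 121 and 123 CPM (-0.28, adjusted p = 0.019), and its adjusted p was 0.11 without control replicate 1, 0.29 without control replicate 2 and 0.16 with the replicate block. Both fell by less than 1.5-fold, with groups apart. CHD3, an ATPase of NuRD, was at -0.23 (adjusted p = 0.061). TRIM28, the scaffold that KRAB domains bind, was at 283 and 251 CPM against 280 and 308 CPM, and its groups overlapped (0.14, adjusted p = 0.28).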
